A study of Danio rerio with 4 samples.

Results

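The transcripts described here are those of eif3ha morphant zebrafish embryos (Danio rerio) compared between a polysomal and a total mRNA library of the same condition. A morphant is an embryo that received a morpholino, an antisense oligonucleotide, in this case against eif3ha, 1 of the zebrafish genes for subunit h of the initiation factor eIF3. Whole embryos of about 24 hours after fertilization were used. Polysomal mRNA of morphants came from the polysomal fractions of 300 embryos and total mRNA of morphants from 50 embryos, and the same 2 kinds of library were made from wild-type embryos. All 4 libraries went through Trizol extraction and polyA preparation and were read as single reads of 36 bases. The labels name no strain and no embryos given a control morpholino, so any effect of injection cannot be told apart from that of eIF3h loss, nor do they say how many ribosomes a polysomal fraction held. Each group is 1 library, so no difference below has a replicate check, and no test between groups was possible.

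A gene entered the comparison with at least 3 RPKM (reads scaled to the length of the gene model and to the mapped reads of the library) in the polysomal or the total library of morphants. This floor was reached by 11951 of the 32313 genes, of which 9558 have a symbol. The value given for each gene is the log2 of polysomal over total after adding 0.5 RPKM to both, so that positive values mean more in polysomal mRNA. Of the 11951 genes, 7458 were above the floor in both libraries, 4199 in total mRNA alone and 294 in polysomal mRNA alone. A gene that passed in 1 library alone had its direction largely set by that rule.

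A ribosome that finishes loading on an mRNA leaves room for the next, and an mRNA with several ribosomes sediments as a polysome, so the polysomal share of a transcript is commonly read as a measure of how actively it is translated. Initiation factor eIF3 is a complex of many subunits that holds the small ribosomal subunit ready for the mRNA and the initiator tRNA. Subunit h is not needed for initiation on every mRNA. Messages for ribosomal proteins, which in vertebrates start with a pyrimidine tract, are known for shifting on and off polysomes as a group, and messages for secreted and membrane proteins are translated at the endoplasmic reticulum.

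Depth was 22001383 mapped reads in morphant polysomal and 21021430 in morphant total mRNA, and 15769467 in wild-type polysomal and 24939984 in wild-type total mRNA. The morphant polysomal library held fewer genes at 3 RPKM or more (7752) than the total library (11657). Its 50 most abundant genes took 38.8% of the summed RPKM, against 24.1% in total mRNA. RPKM shares are relative within a library, so the zero point of the ratio depends on what the abundant genes do. As deposited, the median gene stood at a log2 ratio of -0.70. Scaling by the median of ratios moved this median to -0.51 and scaling by the upper quartile to -0.26. Equal totals of summed RPKM without the 50 most abundant genes moved it to -0.92, and such totals without the mitochondrially encoded genes to -1.15. With all genes kept, summed RPKM was 614738 in morphant polysomal and 418782 in morphant total mRNA. Both of these scalings thus also replace mapped reads by summed RPKM, and their shifts do not measure the part of the genes left out. List medians below are therefore to be read beside the median of all genes, which moves with the scaling too. Counts at 2-fold are taken against a ratio of 0 as deposited. A group is said to change side where any of these scalings turned the sign of its median. Such a change concerns the side of 0 and not the place of the group among all genes.

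The feature named EIF3H (ENSDARG00000036116) stood at 7.60 RPKM in morphant polysomal and 5.92 RPKM in morphant total mRNA, against 6.33 RPKM in wild-type polysomal and 6.24 RPKM in wild-type total mRNA. Its log2 ratio was 0.34 in morphants and 0.02 in wild type, and the 95% counting interval of the morphant read ratio ran from -0.03 to 0.76. Whether the morpholino acts on splicing or on translation is not in the labels, and its name does not tell the eif3h copies apart, so these values do not measure the knockdown.

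In morphants, transcripts of ribosomal proteins, of the respiratory chain and of mitochondrial ribosomes were richer in polysomal than in total mRNA, while apolipoproteins and other plasma proteins, membrane transporters, signalling receptors and zinc finger genes were poorer. Over all 11951 genes, 814 (6.81%) were higher in polysomal mRNA by 2-fold or more and 4913 (41.1%) were lower by as much. At 4-fold, 91 genes (0.761%) were higher and 2609 (21.8%) lower. At 16-fold, 276 genes (2.31%) were lower and 0 higher. The ratios ran from -7.59 to 3.94, with 10% of the genes below -2.93 and 10% above 0.80.

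The balance between the 2 directions rests on the scaling and on the floor. Genes higher in polysomal mRNA made up 14.2% of all genes past 2-fold as deposited, 21.5% after median-of-ratios scaling and 31.5% after upper-quartile scaling. They made up 8.2% with totals without the 50 most abundant genes and 4.2% with totals without the mitochondrially encoded genes. Among genes above the floor in both libraries, the median was -0.20, and 707 genes were called higher at 2-fold and 1309 lower. The added 0.5 RPKM also limits the ratio, since a gene at 3 RPKM in total mRNA cannot go below -2.81, and 1319 of the genes were under 0.5 RPKM in polysomal mRNA.

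The lower side also reached further on plain RPKM ratios with a floor that favours neither library. This floor, chosen after seeing the data, asked for a mean of at least 12 RPKM over the polysomal and total libraries. Of the 4153 morphant genes that passed it, 409 (9.85%) were at least 4-fold lower in polysomal mRNA and 81 (1.95%) at least 4-fold higher. At 8-fold, 237 genes were lower and 5 higher, and at 16-fold 146 were lower and 0 higher. In wild type, 489 of 4212 such genes (11.6%) were at least 4-fold lower and 176 (4.18%) at least 4-fold higher.

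**Figure D1:**
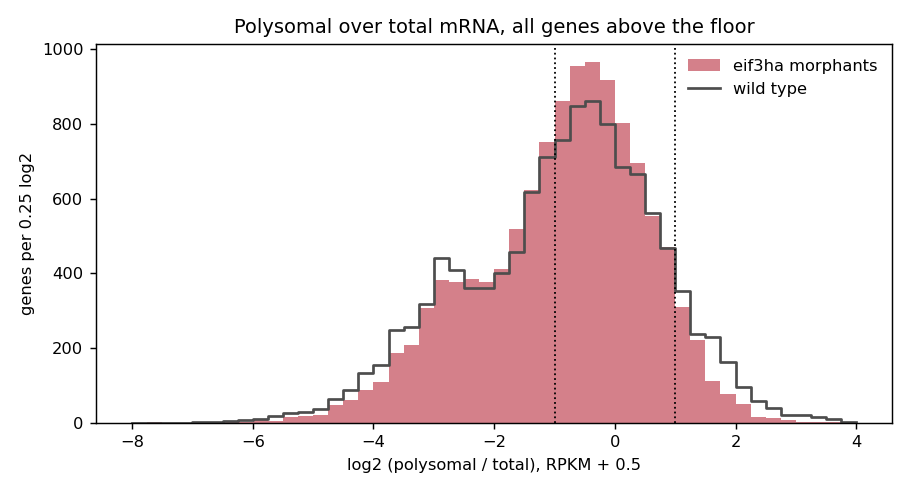
Number of genes per 0.25 of the log2 polysomal over total ratio, for the 11951 genes above the floor in morphants (bars) and the 12072 in wild type (line), with dotted lines at 2-fold. Both conditions peak a little below 0 and have a long lower side, and beyond the upper 2-fold mark lie 814 genes in morphants and 1267 in wild type.

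The small ribosomal subunit gave the highest median of the 46 gene lists. All 30 genes above the floor, of 31 in the files, were above 0, 26 were at least 2-fold higher in polysomal mRNA and 0 lower, and the median was 1.38, which is 2.08 above that of all genes. RPS28 had 1200 RPKM in morphant polysomal and 293.6 RPKM in morphant total mRNA, a log2 ratio of 2.03. RPS29 had 6163 RPKM in polysomal and 1792 RPKM in total mRNA (1.78). Both encode short proteins of the 40S subunit. The lowest member stood at 0.64.

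For the large subunit, 26 of 38 genes were at least 2-fold higher and 0 lower, with a median of 1.16. RPL29 was the highest, with 4157 RPKM in polysomal and 993.8 RPKM in total mRNA (2.06). RPL4 (0.10), RPL5 (0.12), RPLP0 (0.26) and RPL3 (0.40) were the lowest, so the members of this subunit spread more widely below than those of the small one. RPLP0 carries the stalk of the large subunit, and RPL5 joins it together with the 5S rRNA. The genes of the large subunit summed to 60529 RPKM in morphant polysomal and 26033 RPKM in morphant total mRNA, and those of the small subunit to 68779 RPKM in polysomal and 26177 RPKM in total mRNA. Reads of ribosomal protein genes can be shared with processed copies, so the value of a single gene is less certain than that of the group.

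In the same messages, the ratio of morphants lay under that of wild type in all 30 small-subunit and all 38 large-subunit genes. The medians were 1.38 in morphants and 1.90 in wild type for the small subunit, and 1.16 in morphants and 1.64 in wild type for the large one. Over all 11951 genes, 47.1% had a ratio below that of wild type as deposited and 24.2% with totals without the mitochondrially encoded genes. With those totals 23 of 30 small-subunit and 30 of 38 large-subunit genes lay below wild type.

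Respiratory chain genes encoded in the nucleus came next. Of the 74 that passed the floor, 52 were higher by 2-fold or more, 1 was lower and the median was 1.29. Groups by complex also took in assembly factors, such as the NDUFAF and SDHAF genes, so they are wider than the 74 and do not divide them. In these groups, 29 of 42 genes of complex I (median 1.27), 2 of 8 of complex II (0.73), 3 of 8 of complex III (0.86), 8 of 9 of complex IV (1.27) and 13 of 18 of complex V (1.46) were at least 2-fold higher. The complex II group, which joins the succinate dehydrogenase genes and the SDHAF assembly factors, had the lowest median of the 5. NDUFB1 (ENSDARG00000087456), an accessory subunit of complex I, had 343.9 RPKM in morphant polysomal and 60 RPKM in morphant total mRNA (2.51). The inhibitor of the ATP synthase atp5if1a had 813.8 RPKM in polysomal and 185.0 RPKM in total mRNA (2.13), and ndufb3 of complex I had 207.9 RPKM in polysomal and 45 RPKM in total mRNA (2.20).

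The 13 mitochondrially encoded protein genes, which are translated inside the organelle and not by cytosolic ribosomes, also had a median above that of all genes, at 0.90, with 5 at least 2-fold higher and 0 beyond 2-fold lower. Taken with their RefSeq lengths, they held 5.24% of the mapped reads in morphant polysomal and 2.10% in morphant total mRNA, against 6.68% in wild-type polysomal and 2.22% in wild-type total mRNA. MT-CO3, a core subunit of cytochrome c oxidase, had 13666 RPKM in morphant polysomal and 3206 RPKM in morphant total mRNA (2.09), and MT-CYB of complex III had 4917 RPKM in polysomal and 1398 RPKM in total mRNA (1.81).

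The transcripts of this genome did not move as a block. The 3 oxidase subunits stood at 1.21 to 2.09, and of the 7 complex I subunits only MT-ND1 passed 2-fold, at 1.15. MT-ND5 had 303.2 RPKM in morphant polysomal and 605.8 RPKM in morphant total mRNA (just short of 2-fold lower), and mt-nd4l stood at -0.86. The pair MT-ATP6 and mt-atp8, which share a transcript in vertebrates, stood at 0.94 and 0.01, and their gene models overlap, so reads between them may be split. Lengths could be recovered for 4 of these genes, and all 4 equalled the RefSeq length. Organelle transcripts among polysomal reads are a measured property of these libraries, and their part in the other ratios was not tested. The scaling without them also replaces mapped reads by summed RPKM, so it does not isolate that part.

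**Figure D2:**
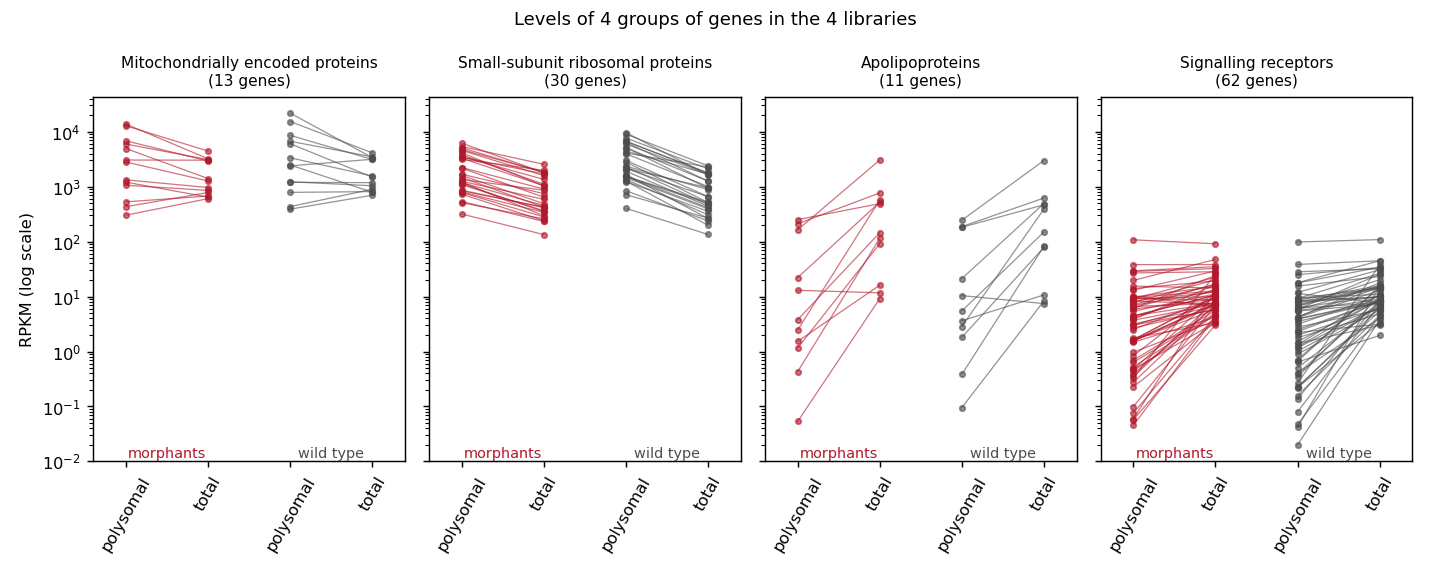
RPKM on a log scale of each gene of 4 groups, joined by a line between polysomal and total mRNA, in morphants (red) and wild type (grey). Lines slope down to the right for all 30 small-subunit ribosomal protein genes in morphants and rise steeply for most apolipoproteins and signalling receptors.

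Mitochondrial ribosomal proteins, made from nuclear genes, had 28 of 61 genes at least 2-fold higher, 0 lower, and a median of 0.98. All 61 stood above the median of all genes. MRPL14 had 119.5 RPKM in morphant polysomal and 37.0 RPKM in morphant total mRNA (1.68), and MRPL35, near the median of its group, had 34.4 RPKM in polysomal and 17.1 RPKM in total mRNA (0.98). The median was 0.98 in morphants and 1.07 in wild type.

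The list of proteasome subunits, matched by symbol, had a median of 0.72, with 6 of 37 at least 2-fold higher and 0 lower. The 16 genes of the 20S core, the proteolytic barrel, had a median of 0.92. The 21 genes with PSMC and PSMD symbols, taken for the 19S cap, which unfolds substrates, had a median of 0.51. These symbols also took in PSMC3IP, which is not a proteasome subunit. PSMB6 had 202.7 RPKM in morphant polysomal and 84.4 RPKM in morphant total mRNA (1.26). The 6 genes of the whole list past 2-fold were 5 core genes and 1 cap gene.

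The 9 histone genes that passed the floor included 5 higher by 2-fold or more (median 1.11). The replacement histones h3f3a (1.37) and H2AZ2 (1.34) were among them, and h2ax had 97.7 RPKM in morphant polysomal and 33.8 RPKM in morphant total mRNA (1.52). Most histone messages made for DNA replication have no polyA tail, so libraries prepared from polyA mRNA measure them poorly. Copies of histone genes resemble each other, and the split of reads among them is uncertain.

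The translation machinery itself divided by part. The 13 eIF3 genes above the floor had a median of 0.28, which changed side over the scalings (-0.22 to 0.75). EIF3K had 345.7 RPKM in morphant polysomal and 172.0 RPKM in morphant total mRNA (1.0) and EIF3M stood at 0.74. EIF3B (ENSDARG00000059654), by contrast, had 93.9 RPKM in polysomal and 275.2 RPKM in total mRNA (-1.55), and EIF3A had 57.9 RPKM in polysomal and 161.0 RPKM in total mRNA (-1.47). EIF3A and EIF3B are large subunits of the complex, and EIF3K and EIF3M are smaller ones. Of the 13, EIF3K was the 1 gene called higher and EIF3A and EIF3B were the 2 called lower.

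The 37 other initiation factors had a median of 0.11, with 1 higher and 8 lower, a median that changed side over the scalings (-0.39 to 0.57). The large scaffold proteins of the cap-binding complex were low. EIF4G1 had 20.6 RPKM in morphant polysomal and 60.5 RPKM in morphant total mRNA (-1.53), and EIF4G3 1.77 RPKM in polysomal and 11.3 RPKM in total mRNA (-2.37). The cap-binding protein EIF4E stood near the median of the group at 0.11. Of 7 elongation and release factors, 0 were called higher and the feature named EEF2 was called lower, with 3.10 RPKM in morphant polysomal and 7.61 RPKM in morphant total mRNA (-1.17), while the wild-type ratio of the same feature was 0.60. The main elongation factor eef1a1l1 had 2345 RPKM in polysomal and 1679 RPKM in total mRNA (0.48).

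Aminoacyl-tRNA synthetases had a median of -0.50, with 2 of 20 higher and 2 lower. The 2 that were higher, AIMP1 (1.06) and AIMP2 (1.01), are scaffold proteins of the synthetase complex and not enzymes. The leucine enzyme lars1a had 0.509 RPKM in morphant polysomal and 24.6 RPKM in morphant total mRNA (-4.64), from 11 reads in polysomal and 553 in total mRNA. Of 63 ribosome biogenesis factors, 2 were higher and 10 lower, with a median of -0.37 that changed side over the scalings (-0.87 to 0.10). NOB1, which trims the 18S rRNA, had 3.87 RPKM in polysomal and 43.9 RPKM in total mRNA (-3.35).

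Genes known for a regulated choice of start codon under stress, together with genes of the integrated stress response, had a median of 0.12, with 2 of 34 higher and 8 lower, and changed side over the scalings (-0.38 to 0.58). The lower share of 23.5% was under the 41.1% of all genes. Of the 34, 6, DDIT3 among them, were under 3 RPKM in polysomal mRNA and passed the floor through total mRNA. With a floor in both libraries 2 of 28 were higher and 2 lower (median 0.18). atf4b, a transcription factor controlled through upstream reading frames in mammals, had 200.2 RPKM in morphant polysomal and 180.5 RPKM in morphant total mRNA (0.15). DDIT3 had 0.720 RPKM in polysomal and 10.6 RPKM in total mRNA (-3.18), and atf5b 4.27 RPKM in polysomal and 21.8 RPKM in total mRNA (-2.23). The ratio of DDIT3 was -2.84 in wild type and that of atf5b -2.43 in wild type. CEBPB, at 1.17, was the highest of the list.

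Selenoproteins, whose messages recode a stop codon, spread to both sides, with 5 of 23 higher and 7 lower, and all 7 of the lower genes were past 4-fold. Of the 23, 5 were under 3 RPKM in polysomal mRNA and passed the floor through total mRNA, which largely set their direction. With a floor in both libraries 4 of 17 were higher and 2 lower (median 0.49). The plasma selenium carrier selenop had 12.9 RPKM in morphant polysomal and 161.4 RPKM in morphant total mRNA (-3.59). The 2 glutathione peroxidase 4 genes went opposite ways, with gpx4a at 9.22 RPKM in polysomal and 103.6 RPKM in total mRNA (-3.42) and GPX4 (ENSDARG00000076836) at 300.7 RPKM in polysomal and 117.8 RPKM in total mRNA (1.35). The median of the list was 0.37 and changed side over the scalings (-0.12 to 0.83).

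**Figure D3:**
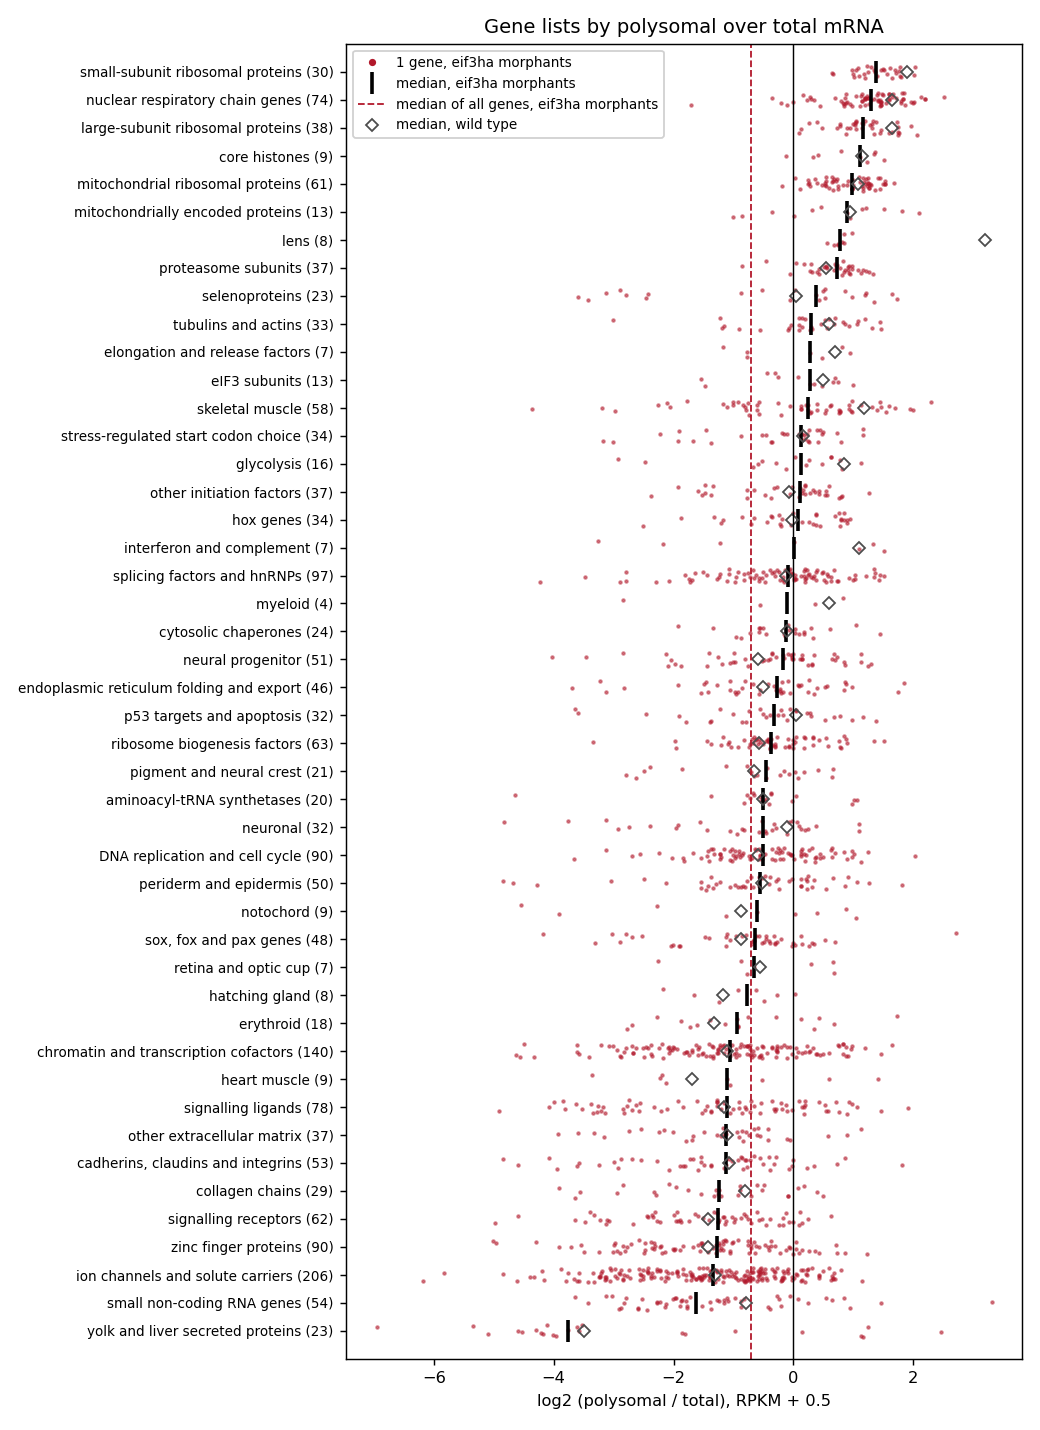
Log2 polysomal over total ratio of every gene above the floor in 46 gene lists (red points, morphants), with the list medians in morphants (black bars) and wild type (open diamonds) and the number of genes in brackets. Medians run from -3.77 for yolk and liver secreted proteins to 1.38 for small-subunit ribosomal proteins, and lens and skeletal muscle show the wild-type median far to the right of the morphant one.

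At the other end, plasma proteins and lipid carriers had the lowest median of the lists, -3.77, which is 3.07 below that of all genes, with 17 of 23 at least 2-fold lower, 15 at least 4-fold lower and 4 higher. In the 1-day zebrafish embryo many of these genes are active in the yolk syncytial layer, the multinucleate layer that exports yolk lipids, and some later in the liver. Of the 23, 8 were under 3 RPKM in polysomal mRNA and passed the floor through total mRNA, and the median with a floor in both libraries was -1.86.

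The floor was passed by 11 apolipoprotein genes, of which 9 were lower by 2-fold or more and 0 higher, and the median was -4.21. The lowest gene of the whole comparison was apobb.1 (ENSDARG00000022767), an apolipoprotein B gene, with 2.47 RPKM in morphant polysomal and 573.1 RPKM in morphant total mRNA (-7.59). The second, APOB (ENSDARG00000042780), had 0.432 RPKM in polysomal and 114.9 RPKM in total mRNA (-6.95). The most abundant of them in total mRNA, apoa1a, had 164.0 RPKM in polysomal and 3050 RPKM in total mRNA (-4.21).

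The 11 genes were not alike. The lipoprotein genes apoc1, at 250.8 RPKM in morphant polysomal and 492.2 RPKM in morphant total mRNA (-0.97), and apoeb, at 211.2 RPKM in polysomal and 768.2 RPKM in total mRNA (-1.86), were much nearer to the other genes. APOD stood at 0.15. In wild type apobb.1 stood at -6.87, apoa1a at -3.61 and apoc1 at -1.36, which is the same order. Together the 11 genes summed to 670.6 RPKM in morphant polysomal and 5794 RPKM in morphant total mRNA. Where a level differs between the conditions, fewer cells of a type and less of the RNA per cell cannot be told apart in whole embryos. This holds for these genes and for any other tissue group below.

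Outside the apolipoproteins, the iron carrier tfa had 4.4 RPKM in polysomal and 197.3 RPKM in total mRNA (-5.34) and fetub, a plasma protease inhibitor of the fetuin family, 56.6 RPKM in polysomal and 1372 RPKM in total mRNA (-4.59). The fibrinogen chain fga had 1.60 RPKM in polysomal and 28.1 RPKM in total mRNA (-3.77). Fatty acid binding proteins went both ways. FABP2 had 18.9 RPKM in morphant polysomal and 335.5 RPKM in morphant total mRNA (-4.12), while FABP3 had 379.6 RPKM in polysomal and 169.4 RPKM in total mRNA (1.16). Of the 2 features named FABP1, ENSDARG00000059227 stood at -4.01 and ENSDARG00000019357, with 342 reads in polysomal and 53 in total mRNA, at 2.47.

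The other genes among the 12 lowest with a symbol had almost no polysomal reads. PC (ENSDARG00000051939), pyruvate carboxylase, had 0 reads in morphant polysomal and 5126 in morphant total mRNA, and set against a floor of 3 reads in the polysomal library it was at least 1788-fold lower. The cerebellin gene cbln10 had 0 reads in polysomal and 248 in total mRNA, at least 86.5-fold lower. DMGDH, a mitochondrial enzyme of choline breakdown, had 23 reads in polysomal and 4418 in total mRNA, with a counting interval of the log2 read ratio from -8.31 to -7.06. Among the 11426 genes with recovered reads, 162 had 0 reads in polysomal mRNA and 0 genes had none in total mRNA. The floor admitted 4199 genes through total mRNA alone and 294 through polysomal mRNA alone, so this contrast was largely set by the floor.

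These low genes were not all metabolic. The RNA-binding protein gene igf2bp1 had 1.14 RPKM in morphant polysomal and 93.6 RPKM in morphant total mRNA (-5.84). ywhae2, a 14-3-3 protein, had 0.879 RPKM in polysomal and 80.5 RPKM in total mRNA (-5.88), the glucose transporter SLC2A1 0.330 RPKM in polysomal and 46.6 RPKM in total mRNA (-5.83), and fbp1b of gluconeogenesis 0.661 RPKM in polysomal and 80.5 RPKM in total mRNA (-6.12). PLBD1 (-6.28) and the citrate carrier SLC25A1 (-6.19) complete the group with apoa4b.1 (-5.79). Wild type gave ratios from -5.09 to -6.87 for all 12.

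Membrane proteins were low as broad groups. Of 206 ion channels and solute carriers, 119 were at least 2-fold lower and 1 higher, with a median of -1.34. Within them, 163 genes with solute carrier symbols had a median of -1.46 and 21 genes with channel symbols -0.83. Such symbols also took in genes that are not transporters or channels, such as SLC7A6OS, slc4a1ap, slc2a4rg and grinab. The 33 mitochondrial carriers of the slc25 family stood at -0.69, close to all genes. SLC16A1, a lactate transporter, had 1.34 RPKM in morphant polysomal and 44.4 RPKM in morphant total mRNA (-4.61), and SLC30A1, a zinc exporter, 0.224 RPKM in polysomal and 20.3 RPKM in total mRNA (-4.85). Of the 206, 100 were under 3 RPKM in polysomal mRNA, and the median with a floor in both libraries was -0.68, against -0.20 for all genes. Under that floor 33 of 101 were lower and 1 higher.

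Signalling receptors had 39 of 62 genes at least 2-fold lower (62.9%) and 0 higher (median -1.26). Their ligands had 41 of 78 lower (52.6%) and 3 higher (median -1.10), and of all genes 41.1% were lower. The TGF-beta receptor TGFBR1 had 0.332 RPKM in morphant polysomal and 25.7 RPKM in morphant total mRNA (-4.98), from 13 reads in polysomal and 1037 in total mRNA. The Bmp receptor BMPR1A, near the median, had 9.10 RPKM in polysomal and 22.4 RPKM in total mRNA (-1.26). Among ligands, EFNB3, a membrane-bound ephrin, had 0.184 RPKM in polysomal and 20.1 RPKM in total mRNA (-4.91). Under 3 RPKM in polysomal mRNA were 28 of the 62 receptors and 41 of the 78 ligands, TGFBR1 and EFNB3 among them. With a floor in both libraries 12 of 34 receptors were lower and 0 higher (median -0.75). Under that floor 4 of 33 ligands were lower and 3 higher (median -0.13). Of all 7458 genes above it, 1309 were lower (median -0.20), so that the ligands then lay at the level of all genes.

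Cell adhesion and matrix genes were similar. Of 53 cadherins, claudins and integrins, 30 were lower and 1 higher (median -1.13), of 29 collagen chains 16 lower and 0 higher (-1.24), and of 37 other matrix genes 20 lower and 1 higher (-1.12). The claudin CLDN5, a tight junction protein, had 1.24 RPKM in morphant polysomal and 49.7 RPKM in morphant total mRNA (-4.85). The basement membrane laminin lamc1 had 9.67 RPKM in polysomal and 101.1 RPKM in total mRNA (-3.32), and col8a1a 5.78 RPKM in polysomal and 94.0 RPKM in total mRNA (-3.91). With a floor in both libraries the 3 medians were -0.69, -0.89 and -0.79. Under that floor 10 of 30, 9 of 21 and 7 of 21 genes were lower, in the same order. By contrast, 46 genes of folding and export in the endoplasmic reticulum had a median of -0.28, which changed side over the scalings (-0.72 to 0.15).

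Zinc finger genes had 58 of 90 at least 2-fold lower and 1 higher (median -1.27), and chromatin and transcription cofactors 72 of 140 lower and 3 higher (median -1.06). Under 3 RPKM in polysomal mRNA were 48 of the 90 and 55 of the 140, which passed the floor through total mRNA. With a floor in both libraries 14 of 42 zinc finger genes were lower and 1 higher (median -0.64), and 24 of 84 cofactors were lower and 3 higher (median -0.53). The cofactors have long gene models, and their median relative to genes of like length was 0.04. ZBTB16 had 0.206 RPKM in morphant polysomal and 22.3 RPKM in morphant total mRNA (-5.01) and its copy zbtb16b 0.367 RPKM in polysomal and 26.6 RPKM in total mRNA (-4.96). The methylcytosine oxidase gene tet3 had 0.347 RPKM in polysomal and 16.5 RPKM in total mRNA (-4.33). Hox genes differed from these, with a median of 0.08 over 34 genes, 0 higher and 5 lower, and changed side over the scalings (-0.39 to 0.52).

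Gene length ran along with the ratio. Over 8 equal groups of genes by gene-model length, the share at least 2-fold higher in polysomal mRNA was 23.9% for models of 30 to 806 bases and 0.3% for models of 6587 to 29153 bases. The share at least 2-fold lower was 47.6% in the shortest group, lowest at 34.2% between 1869 and 2512 bases, and 60% in the longest. The median was -0.75 in the shortest group, -0.19 in the next and -1.18 in the longest. The spread was wider among short genes, as the 10th and 90th percentiles were -3.21 and 1.65 in the shortest group and -2.56 and -0.38 in the longest. Spearman's rho of length and ratio over the genes with a recovered length was -0.17, a description in which every gene shares the same 2 libraries. A recovered length is the shortest that the values allow and can be too short by a whole factor. Most high lists are of short genes, with median models of 910 bases for the respiratory chain and 1124 bases for mitochondrial ribosomal proteins. Several low lists are of long genes, with 5744 bases for receptors. For the small ribosomal subunit a length was recovered for 1 gene of 30 alone (557 bases).

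Set against genes of like length, some lists kept their place and others did not. Relative medians were 1.95 for the small subunit, 1.77 for the nuclear respiratory chain, 1.34 for mitochondrial ribosomal proteins and -2.80 for plasma proteins. They were -0.32 for receptors and -0.56 for channels and solute carriers. The matrix genes outside the collagens moved to 0.06 and chromatin cofactors to 0.04, so for those 2 lists the low ratio was that of other long genes. Length was recovered for few ribosomal protein genes (1 of 30 and 2 of 38), so their relative medians rest on those.

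The ratio also differed by level in total mRNA, which is its own denominator. The 294 genes under 3 RPKM in total mRNA, which passed the floor through polysomal mRNA, had a median of 0.85, with 36.4% at least 2-fold higher and 0 lower. Genes of 3 to 10 RPKM in total mRNA had a median of -0.98, those of 10 to 30 RPKM -0.72, those of 30 to 100 RPKM -0.20, and the 560 genes of at least 100 RPKM 0.51, with 32.9% at least 2-fold higher and 15% lower. How far length and level account for the lists was not tested beyond these values.

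**Figure D4:**
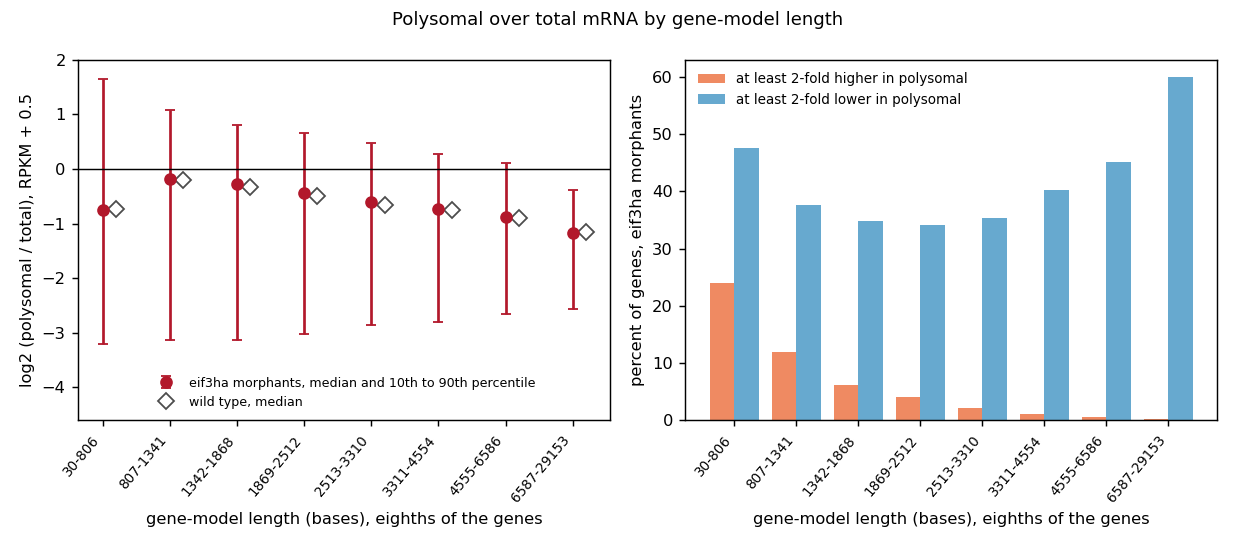
Left, log2 polysomal over total ratio by gene-model length in 8 equal groups, with the morphant median and its 10th to 90th percentile and the wild-type median. Right, percent of morphant genes at least 2-fold higher and lower in polysomal mRNA, with the higher share shrinking as models lengthen (23.9% in the shortest group, 0.3% in the longest).

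Single genes at the top of the comparison included regulators that are switched on rapidly. JUNB (ENSDARG00000074378), a subunit of the AP-1 transcription factor, had 19.5 RPKM in morphant polysomal and 1.86 RPKM in morphant total mRNA (3.08), with a counting interval of the log2 read ratio from 3.09 to 3.72. JUNB passed the floor through polysomal mRNA alone, which largely set its direction. The immediate-early gene ier2b had 49.8 RPKM in polysomal and 9.55 RPKM in total mRNA (2.32). Of 10 fos, jun, egr and ier genes, a group put together after these values were seen, 5 were at least 2-fold higher and 2 lower, among them FOS (1.77) and egr1 (1.89) above and JUND (-2.23) below. JUNB stood at 2.61 in wild type, ier2b at 2.42, FOS at 3.81 and egr1 at 0.99.

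Others of the 12 highest with a symbol were FOXQ1 (2.71), a forkhead transcription factor, UBE2J2 (2.63), a ubiquitin-conjugating enzyme of the endoplasmic reticulum, TCIM (2.55), SNX6 (2.44), a sorting nexin, and cox14 (2.28), an assembly factor of cytochrome c oxidase. FOXQ1, UBE2J2 and SNX6 rest on 25, 17 and 28 reads in morphant total mRNA, and si:ch211-121a2.2 on 29. Like JUNB, these genes were under 3 RPKM in morphant total mRNA. They passed the floor through polysomal mRNA alone, which largely set their direction. si:ch211-121a2.2 had 7.67 RPKM in morphant polysomal and 0.418 RPKM in morphant total mRNA (3.16), against 6.51 RPKM in wild-type polysomal and 5.03 RPKM in wild-type total mRNA (0.34), so for this gene the morphant total library stands apart from the other 3.

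The top gene with a symbol was the 5_8S_rRNA feature, with 531.1 RPKM in morphant polysomal and 53.1 RPKM in morphant total mRNA (3.31). Ribosomal RNA has no polyA tail, and polyA preparation is meant to remove it. The list of small non-coding RNA genes, which includes this feature, lay low, with 36 of 54 at least 2-fold lower and 2 higher (median -1.62). Small nucleolar RNAs, which work in the nucleolus and are not translated, had 21 of 25 at least 2-fold lower and 1 higher, with a median of -1.96. They are short, many lie in introns of other genes, and their values rest on few reads, such as 8 in polysomal and 25 in total mRNA for SNORD54. Of the 54 genes, 36 were under 3 RPKM in polysomal mRNA, and the median with a floor in both libraries was -0.39.

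Mitochondrially encoded and ribosomal protein transcripts made up much of the 10 most abundant of each morphant library. Outside them, si:dkey-151g10.6 led the polysomal library with 18038 RPKM, against 4049 RPKM in total mRNA (2.16). The actin-binding thymosin tmsb4x had 6021 RPKM in polysomal and 2194 RPKM in total mRNA (1.46). Among the 10 most abundant of total mRNA, the skin keratin krt4 and the apolipoprotein gene apoa1a went the other way. The level of krt4 was 2397 RPKM in polysomal and 4400 RPKM in total mRNA (-0.88), and apoa1a, described above, stood at -4.21.

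Marker genes of every tissue looked at were above the floor, from 58 of 80 in skeletal muscle and 50 of 78 in skin to 8 of 63 in lens and 4 of 19 in myeloid cells. Tissue groups were mostly spread around the median of all genes. Neuronal genes had 2 of 32 higher and 11 lower (median -0.50), and neural progenitor genes 4 of 51 higher and 14 lower (-0.18, changing side over the scalings from -0.66 to 0.26). With a floor in both libraries 2 of 19 neuronal genes were higher and 2 lower (median -0.07). Under that floor 4 of 43 progenitor genes were higher and 8 lower (-0.02), and the median of all genes was -0.20. The neuronal RNA-binding gene ELAVL3 had 0.610 RPKM in morphant polysomal and 31.0 RPKM in morphant total mRNA (-4.83), and the progenitor gene msi1a 1 read in polysomal and 265 in total mRNA. In the skin, 3 of 50 periderm and epidermis genes were higher and 15 lower (-0.55), with the junction protein genes evpla (-4.68) and DSP (ENSDARG00000076673, -4.28) lowest. With a floor in both libraries 3 of 42 skin genes were higher and 8 lower (median -0.34). Hatching gland genes stood at -0.78 over 8 genes and heart muscle genes at -1.10 over 9. Only 4 of the 9 heart genes reached 3 RPKM in both libraries (median -0.79).

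Lists of general cell functions, of developmental regulators and of pigment and neural crest genes lay in between. Over all genes, 6.81% were at least 2-fold higher and 41.1% lower. Each of these lists had a smaller share of lower genes, from 8.3% for cytosolic chaperones to 35.4% for sox, fox and pax genes. DNA replication and cell cycle genes had 4 of 90 higher and 26 lower (median -0.51), with the cyclin CCND2 at 1.20 RPKM in morphant polysomal and 21.2 RPKM in morphant total mRNA (-3.67). Of the 90, 13 were under 3 RPKM in polysomal mRNA. With a floor in both libraries 4 of 77 were higher and 16 lower (median -0.26). Splicing factors and hnRNPs had 9 of 97 higher and 20 lower (median -0.09, changing side over the scalings from -0.59 to 0.37), with syncripl at 1.0 RPKM in polysomal and 27.7 RPKM in total mRNA (-4.23). Tubulins and actins had 6 of 33 higher and 4 lower (median 0.30, changing side from -0.21 to 0.77), and cytosolic chaperones 2 of 24 higher and 2 lower (median -0.12, changing side from -0.62 to 0.34). Among the developmental sox, fox and pax genes, 1 of 48 was higher and 17 were lower (median -0.64), with SOX9 at 0.564 RPKM in polysomal and 7.43 RPKM in total mRNA (-2.90). Of the 48, 14 were under 3 RPKM in polysomal mRNA. With a floor in both libraries 0 of 33 were higher and 4 lower (median -0.40). Pigment and neural crest genes had 0 of 21 higher and 6 lower (median -0.46, reaching 0.00 under 1 scaling), with tyrosinase, TYR, at 1.24 RPKM in polysomal and 11.6 RPKM in total mRNA (-2.80). CCND2, syncripl, SOX9 and TYR were all under 3 RPKM in polysomal mRNA. They passed the floor through total mRNA alone, which largely set their direction.

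In blood, the erythroid list of globin, haem-synthesis and structural genes had 1 of 18 higher and 8 lower (median -0.94). The lower share of 44.4% was near the 41.1% of all genes. The 5 globin genes above the floor, grouped after their values were seen, stood between 0.12 and 1.73, and 1 of them was past 2-fold. The embryonic globin hbbe3 had 1174 RPKM in morphant polysomal and 731.2 RPKM in morphant total mRNA (0.68) and hbae1.3 144.6 RPKM in polysomal and 43.1 RPKM in total mRNA (1.73). The iron importer of mitochondria SLC25A37 (-2.78) and the red-cell spectrin SPTB (-2.70) were the lowest.

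Skeletal muscle genes were widely spread, with 11 of 58 at least 2-fold higher and 11 lower. Their median of 0.24 changed side over the scalings (-0.24 to 0.69). High members included TNNI2, a fast troponin I, at 365.9 RPKM in morphant polysomal and 125.4 RPKM in morphant total mRNA (1.54), and pvalb1, a calcium buffer of fast muscle, at 294.9 RPKM in polysomal and 59.4 RPKM in total mRNA (2.30). The muscle creatine kinase ckma stood at 0.25. Low members included pvalb9, with 5.60 RPKM in polysomal and 125.0 RPKM in total mRNA (-4.36), the transcription factor MEF2C (-3.20) and the calcium release channel RYR1 (-2.97).

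The same ratios were taken in wild type. Of its 12072 genes above the floor, 1267 (10.5%) were past 2-fold on the higher side of polysomal mRNA and 5156 (42.7%) on the lower side, with a median of -0.71. Over the 11433 genes above the floor in both conditions, the ratios of morphants and wild type, which share no library, had a Pearson r of 0.95 and a Spearman rho of 0.95. These are descriptions across genes, which are not independent replicates. Of the genes at least 2-fold lower in morphants, 91.5% were so in wild type, whether or not they passed the wild-type floor. Of the genes at least 2-fold lower in wild type, 82.8% passed the morphant floor and were so in morphants. On the higher side, 85.9% of the morphant genes were so in wild type, again without the wild-type floor. Of the genes at least 2-fold higher in wild type, 54.9% passed the morphant floor and were so in morphants.

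The difference between the conditions was taken for 7546 genes that reached 3 RPKM in total mRNA of both conditions and in polysomal mRNA of either. The morphant ratio was at least 2-fold above the wild-type ratio in 122 genes (1.62%) and at least 2-fold below it in 232 (3.07%). This balance turned with the scaling, to 223 genes above and 158 below with totals without the 50 most abundant genes, and to 309 above and 122 below with totals without the mitochondrially encoded genes. Of the 11951 genes above the morphant floor, 6 were beyond 2-fold in opposite directions in the conditions, and 52.9% had a ratio above and 47.1% below that of wild type by any amount. The share above ran to 75.8% over the scalings. All 8 lens genes above the floor had a smaller ratio in morphants, with a median of 0.78 in morphants and 3.19 in wild type, and so had 51 of 58 skeletal muscle genes, with a median of 0.24 in morphants and 1.18 in wild type. Over the scalings, all 8 lens genes and 45 to 51 of the 58 muscle genes lay below wild type. For the lens crystallin cryba1l1 the level was 17.5 RPKM in morphant polysomal and 8.65 RPKM in morphant total mRNA (0.98), against 124.4 RPKM in wild-type polysomal and 9.63 RPKM in wild-type total mRNA (3.62). The crystallin genes resemble each other, and the split of reads among them is uncertain.

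Glycolysis genes had a median of 0.12 in morphants and 0.85 in wild type, with 13 of 16 lower in morphants as deposited and under every scaling, and the p53 and apoptosis genes -0.33 in morphants and 0.05 in wild type. Both morphant medians changed side over the scalings, glycolysis between -0.35 and 0.57 and p53 and apoptosis between -0.80 and 0.12. The p53 and apoptosis list had 20 of 32 genes below wild type as deposited and 16 of 32 with totals without the mitochondrially encoded genes. Of all genes, 47.1% lay below wild type as deposited and 24.2% with those totals. In cdkn1a, the cell cycle inhibitor downstream of p53, the level was 19.6 RPKM in morphant polysomal and 23.6 RPKM in morphant total mRNA (-0.26), against 6.88 RPKM in wild-type polysomal and 1.76 RPKM in wild-type total mRNA (1.71). The interferon-induced isg15 likewise stood at 0.01 in morphants and 2.56 in wild type, where it rests on 4 reads in total mRNA. Of the hox genes, 26 of 34 had a higher ratio in morphants as deposited and up to 31 of 34 over the scalings. The share of all genes with a higher ratio in morphants was 52.9% as deposited and up to 75.8% over the scalings.

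Among the genes of the 7546 with a symbol, the 8 whose ratio lay furthest above that of wild type included posterior and mesodermal regulators. Of these 8, 6 reached 3 RPKM in polysomal mRNA of morphants alone, so their direction was partly set by the filter, and krt99 and serbp1b reached it in both conditions. HOXC12 had 3.58 RPKM in morphant polysomal and 14.4 RPKM in morphant total mRNA (-1.87), against 0.615 RPKM in wild-type polysomal and 22.6 RPKM in wild-type total mRNA (-4.37). The presomitic gene msgn1 stood at -1.07 in morphants and -3.07 in wild type, tbx6 at -0.72 in morphants and -2.69 in wild type, and EN2 of the midbrain-hindbrain boundary at -0.94 in morphants and -2.62 in wild type. All 8, with HOXC13, krt99, SPRY4 and serbp1b, had a ratio below 0 in both conditions. Genes that missed 3 RPKM in total mRNA of either condition are not ranked here, and si:ch211-121a2.2, described above, is 1 of them.

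The 8 genes furthest below wild type under the same filter were, with 1 exception, above 0 in morphants. The ratio of pvalb1 was 2.30 in morphants and 7.21 in wild type, that of cox6b1, an oxidase subunit, 2.0 in morphants and 5.25 in wild type, and that of pvalb4 1.60 in morphants and 4.53 in wild type. TNNT3, fast troponin T, CRYGN, TNNI2 and cryba1l1 were the others, and all of them are muscle or lens genes. The exception, SNORD36C, had 0 reads in morphant polysomal and 11 in morphant total mRNA, and it passed the filter through polysomal mRNA of wild type alone. For pvalb1, the 2972 RPKM of wild-type polysomal mRNA stand apart from 294.9 RPKM in morphant polysomal, 59.4 RPKM in morphant total and 19.5 RPKM in wild-type total mRNA.

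**Figure D5:**
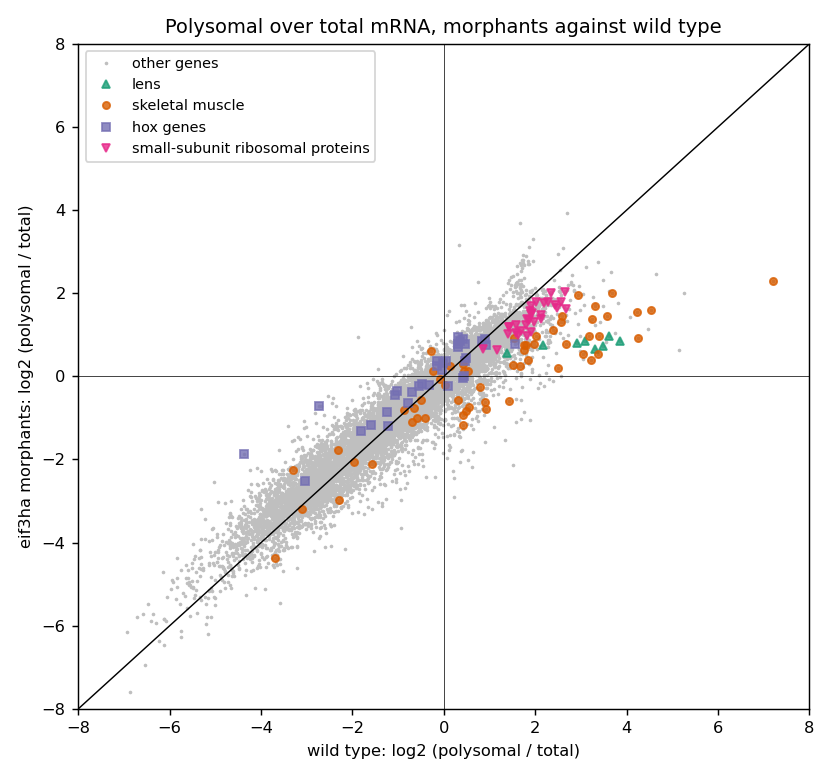
Log2 polysomal over total ratio of the genes above the floor in morphants (vertical) against wild type (horizontal), with the line of equal ratios. Most genes lie along the line, skeletal muscle and lens genes lie under it where the wild-type ratio is high, and hox genes lie mostly above it.

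Close to the floor, b4galt1 (3.0 RPKM in morphant total mRNA, ratio -0.78), si:dkey-76d14.2 (3.0 RPKM in morphant polysomal mRNA, 0.69) and PPP2R3A (3.0 RPKM in total mRNA, -2.47) were just inside. exd3 (-1.55), ETNK2 (-2.72) and tmem63a (-1.73) were just outside.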

How the data were processed

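Per the labels, polysomal and total mRNA of zebrafish embryos were sequenced as 1 library for each of 4 groups. The authors deposited 1 RPKM value per Ensembl gene and library (32313 genes), relative to gene-model length and mapped reads. The Zv9 build is named in the submitters' processing notes. The read aligner and the annotation release were not given in the sources used here. Symbols were joined by identifier for 20499 genes. Names in capitals are orthologue-type names of that table and are printed as they stand, and genome coordinates were not used here.

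Low deposited values fall on a ladder whose rungs equal 1 read, offset by 1. From this ladder the depth of each library, the gene-model lengths and the reads were recovered, for 11426 of the 11951 genes compared (95.6%). Ratios were taken as log2 with 0.5 RPKM added and counted at 2-fold. Intervals are exact (Clopper-Pearson) 95% intervals of the reads and cover counting error only. A fold against 0 reads uses a floor of 3 reads in that library. The calculation was tested on simulated data.

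Named genes are the eIF3 genes, the 12 highest and 12 lowest with a symbol, the 10 most abundant of each morphant library, of each list up to 4 members farthest from 0 and up to 2 nearest its median, the 8 highest and 8 lowest in the difference from wild type, and 3 genes on each side of the floor. Not every gene so selected is printed, and other genes in the text were chosen after their values were seen. The members and the 46 lists were chosen with earlier results of these data known. Alternatives were other scalings, pseudocounts, floors and folds, the mean of a list, a counting interval on the called side and, chosen after seeing the data, ratios relative to genes of like length in 20 bins. The work ran under Python 3.11.15 with SciPy 1.17.1, pandas 2.3.3 and NumPy 2.4.6, and plots were drawn with Matplotlib 3.10.9.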

Additional observations from a re-analysis of the deposited data

Results flagged for a closer look

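Among the genes compared, 6 were at least 2-fold lower in polysomal than in total mRNA in morphants and at least 2-fold higher in wild type. With 1 library per group this difference between the conditions was not tested. The complement gene c4b (ENSDARG00000038424) stood at -1.23 in morphants and 1.10 in wild type, from 1604 polysomal and 3763 total reads in morphants and 440 polysomal and 247 total reads in wild type. si:dkey-90a24.1 stood at -1.06 in morphants and 1.89 in wild type, and si:dkey-21o19.8 at -1.02 in morphants and 1.70 in wild type. In these 3 genes the total level was the value that differed most, with 15.4 RPKM in morphants and 0.855 RPKM in wild type for c4b, 16.9 RPKM in morphants and 0.521 RPKM in wild type for si:dkey-90a24.1, and 28.8 RPKM in morphants and 1.05 RPKM in wild type for si:dkey-21o19.8. The other 3 rest on at most 8 reads in any library: mir457b at -1.09 in morphants and 1.58 in wild type, mir19c at -2.14 in morphants and 1.52 in wild type, and ENSDARG00000085320, which has no symbol, at -1.52 in morphants and 1.35 in wild type.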

How the results depend on the processing

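With 1 library per group, no replicate could be left out. No paired analysis was possible because each group has 1 library and no replicate number. Genes higher in polysomal mRNA (814) and lower (4913) became 1737 higher under upper-quartile scaling, 509 higher with totals without the 50 most abundant genes, 288 higher with totals without mitochondrially encoded genes, 1647 higher at 1.5-fold, 91 higher and 2609 lower at 4-fold, and 1668 higher and 3030 lower relative to genes of like length. Genes lower became 7949 with no floor, 1591 with a floor of 12 RPKM and 1309 with a floor in both libraries. In the difference between conditions, 122 higher and 232 lower became 494 and 932 with no floor, 23 and 94 with a floor of 12 RPKM, 537 and 639 at 1.5-fold, 5 and 29 at 4-fold, and 309 and 122 with totals without mitochondrially encoded genes. Those higher became 65 with a floor in both libraries and 223 with totals without the 50 most abundant genes. The other 25 counts moved by less than 1.5 times. The cause was not tested where scaling moved a count, and other folds and floors change what is counted. Of the list medians past 2-fold, 2 turned sign relative to genes of like length, other extracellular matrix (0.06) and chromatin and transcription cofactors (0.04). Read against the median of all genes, 6 of the 46 lists changed side relative to genes of like length, and the other 4 were elongation and release factors (0.98 above all genes as deposited and -0.21 relative to like length), notochord (0.10 and -0.23), retina and optic cup (0.04 and -0.10) and sox, fox and pax genes (0.06 and -0.04). A length was recovered for 3 of the 7 elongation and release factors, so their 2 values rest on different members. Whether length or the missing members turned their side was not tested. Over all alternatives, 380 list values kept their sign and their side of 2-fold, 49 fell short of 2-fold, 22 came past it and 53 medians within 2-fold turned sign. Reads per gene limit the lowest ratios, since 162 genes have no polysomal read.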
